A study of Mus musculus with 10 samples.

Results

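Pparg and 9 genes that PPAR receptors are known to control were followed in mouse marrow cultures given adiponectin or vehicle. The 10 genes, Pparg, Lpl, Pdk4, Angptl4, Fabp3, Fabp4, Cd36, Acadm, Cpt1a and Plin2, were chosen by name, each with its probe set of highest mean signal, and all 10 were among the 19938 genes that the array names by 1 symbol. Cells from the long bones of male Swiss mice, 4 to 6 weeks old, were grown in medium with serum and calcitriol (1e-08 M), a hormone under which osteoclasts can form from marrow. The adiponectin arm received recombinant mouse adiponectin (5 µg/ml) and the control arm only vehicle, so both arms shared the calcitriol and differed in the protein preparation. RNA of 1 culture per arm was hybridised to a whole-transcript array at 4, 10, 24, 72 and 120 h, which gave 5 control and 5 adiponectin arrays. The series title raises lipopolysaccharide contamination of the preparation, so a difference between the arms belongs to the preparation as given and cannot be assigned to adiponectin. Whether cultures came from separate animals was not stated in the labels. No arm and time had a replicate culture. The spread behind a p-value between the arms starts from that of 5 differences taken at 5 different times. It thus holds any change of the difference with time as well as variation between cultures. For each gene, limma then draws this spread towards the spread typical of all genes. A p-value or interval therefore does not rest on the 5 differences of that gene alone. The spread behind a course likewise holds any departure from a line, and both arms share 1 estimate of it.

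PPARs are nuclear receptors that bind fatty acids and their derivatives, pair with RXR receptors and sit on DNA at a direct repeat of the core AGGTCA with 1 base between the copies. PPAR-gamma drives fat cell formation and is also made by macrophages and osteoclast precursors. Its targets take up lipid (Lpl, Cd36), carry it in the cell (Fabp3, Fabp4), store it (Plin2), burn it (Cpt1a, Acadm) or shift fuel use and lipase activity (Pdk4, Angptl4).

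The array medians over all genes lay between 8.27 and 8.48 on the log2 scale, and any 2 arrays correlated across genes at 0.960 to 0.995. The labelled tissue was checked against marker lists. Macrophage markers were high on every array (8 of 8 measured and above the median gene; mean level 12.1 to 12.3 in control and 12.2 to 12.4 in adiponectin cultures). Neutrophil markers (8 of 8 above the median gene) averaged 13.4 in the 4 h control and 9.72 in the 120 h control. Adipocyte markers were low on average over the arrays, with 1 of 7 measured above the median gene. Their list means were 7.85 to 8.66 in control and 7.87 to 8.31 in adiponectin cultures, highest at 120 h in both arms. Adipoq, named after its values were seen, went from 7.57 at 4 h to 10.59 at 120 h in control cultures. In adiponectin cultures it went from 7.29 to 10.05.

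Promoter sequences are shown for the genes the results turn on and for those with the closest match to the PPAR element. RefSeq windows (GRCm38.p6, 250 bases before to 50 after each start) were given for 7 of the 10 genes, in 9 windows. On both strands, 0 of 9 windows held the exact repeat, against 0.0396% of all 32851 windows. With up to 2 mismatches in the 12 fixed letters, 2 of 9 matched, those of Plin2 and Cd36, against 3.86% of all windows. The core alone, which the repeat contains, was in 6 of 9 windows (5 genes) and in 16.3% of all. These are letter matches, and no binding was measured. The lines below give the 250 bases before the start, 5′ to 3′ on the gene's strand, with the match to the repeat (Plin2, Cd36) or the core (Pparg) in capitals. Pparg has 3 starts in this reference and the first is shown. Its transcripts were not told apart here, because 1 probe set stood for the gene.
Pparg, chr6:115360894-115361143, plus strand: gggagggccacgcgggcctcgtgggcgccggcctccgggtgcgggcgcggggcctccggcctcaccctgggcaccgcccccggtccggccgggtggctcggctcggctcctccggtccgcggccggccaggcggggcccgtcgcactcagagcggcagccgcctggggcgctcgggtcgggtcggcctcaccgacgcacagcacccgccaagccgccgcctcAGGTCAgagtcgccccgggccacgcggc
Pdk4, chr6:5496279-5496528, minus strand: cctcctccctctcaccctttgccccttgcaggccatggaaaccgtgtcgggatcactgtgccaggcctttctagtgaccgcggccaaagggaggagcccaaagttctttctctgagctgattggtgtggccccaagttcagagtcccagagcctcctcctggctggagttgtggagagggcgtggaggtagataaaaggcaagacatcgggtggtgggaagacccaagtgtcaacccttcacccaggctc
Fabp3, chr4:130308488-130308737, plus strand: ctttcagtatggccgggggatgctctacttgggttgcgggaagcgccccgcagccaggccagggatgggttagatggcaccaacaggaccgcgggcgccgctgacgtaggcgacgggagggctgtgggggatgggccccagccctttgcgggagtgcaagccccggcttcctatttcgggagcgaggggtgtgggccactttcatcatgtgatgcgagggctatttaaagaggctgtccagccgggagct
Plin2, chr4:86670060-86670309, minus strand: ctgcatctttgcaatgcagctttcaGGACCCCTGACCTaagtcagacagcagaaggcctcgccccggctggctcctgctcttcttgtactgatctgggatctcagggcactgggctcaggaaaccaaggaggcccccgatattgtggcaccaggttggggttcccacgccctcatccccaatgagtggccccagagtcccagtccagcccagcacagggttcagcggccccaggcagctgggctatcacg
Cd36, chr5:17835897-17836146, minus strand: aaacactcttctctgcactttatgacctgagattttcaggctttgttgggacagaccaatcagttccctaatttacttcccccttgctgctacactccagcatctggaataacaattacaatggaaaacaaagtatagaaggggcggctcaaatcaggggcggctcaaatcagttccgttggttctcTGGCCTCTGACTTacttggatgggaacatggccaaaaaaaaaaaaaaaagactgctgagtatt
Counted from the start, the Plin2 match lay at -225 to -213 and the Cd36 match at -63 to -51, both on the opposite strand. The shown Pdk4 and Fabp3 windows held neither the repeat at that tolerance nor the core.

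Pparg itself was lower in adiponectin cultures, and most so in the first day. Its log2 signal in control cultures was 11.14 at 4 h, 10.79 at 10 h, 10.87 at 24 h, 10.88 at 72 h and 11.12 at 120 h. In adiponectin cultures it was 10.12, 10.17, 10.22, 10.65 and 11.01 at the same times. The adiponectin arrays from 4 to 72 h lay below every control array, while the 120 h adiponectin array lay within the control range. Adiponectin minus control was thus -1.02 at 4 h (2.03-fold lower), -0.62 at 10 h, -0.65 at 24 h, -0.23 at 72 h and -0.12 at 120 h. The mean difference was -0.53 ± 0.36 (SD, n = 5 pairs; 1.44-fold lower; lower in 5 of 5 pairs), with limma adjusted p = 0.0475 and a 95% interval from -0.79 to -0.26. The call was lost without the 4 h pair (-0.40, adjusted p = 0.119), the 10 h pair (-0.50, adjusted p = 0.155) or the 24 h pair (-0.50, adjusted p = 0.216), and when times were not paired (adjusted p = 0.424).

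Of the 10 genes, 1 was called lower, Pparg, and 1 higher, Fabp3, where 0.371% of all genes were called lower and 2.05% higher. The members had been chosen with results of these data known, so these shares describe them and do not test them. The median of the 10 mean differences was -0.24, against 0.01 over all genes. Of the 10, 7 were below 0, against 8746 of all 19938 genes.

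**Figure D1:**
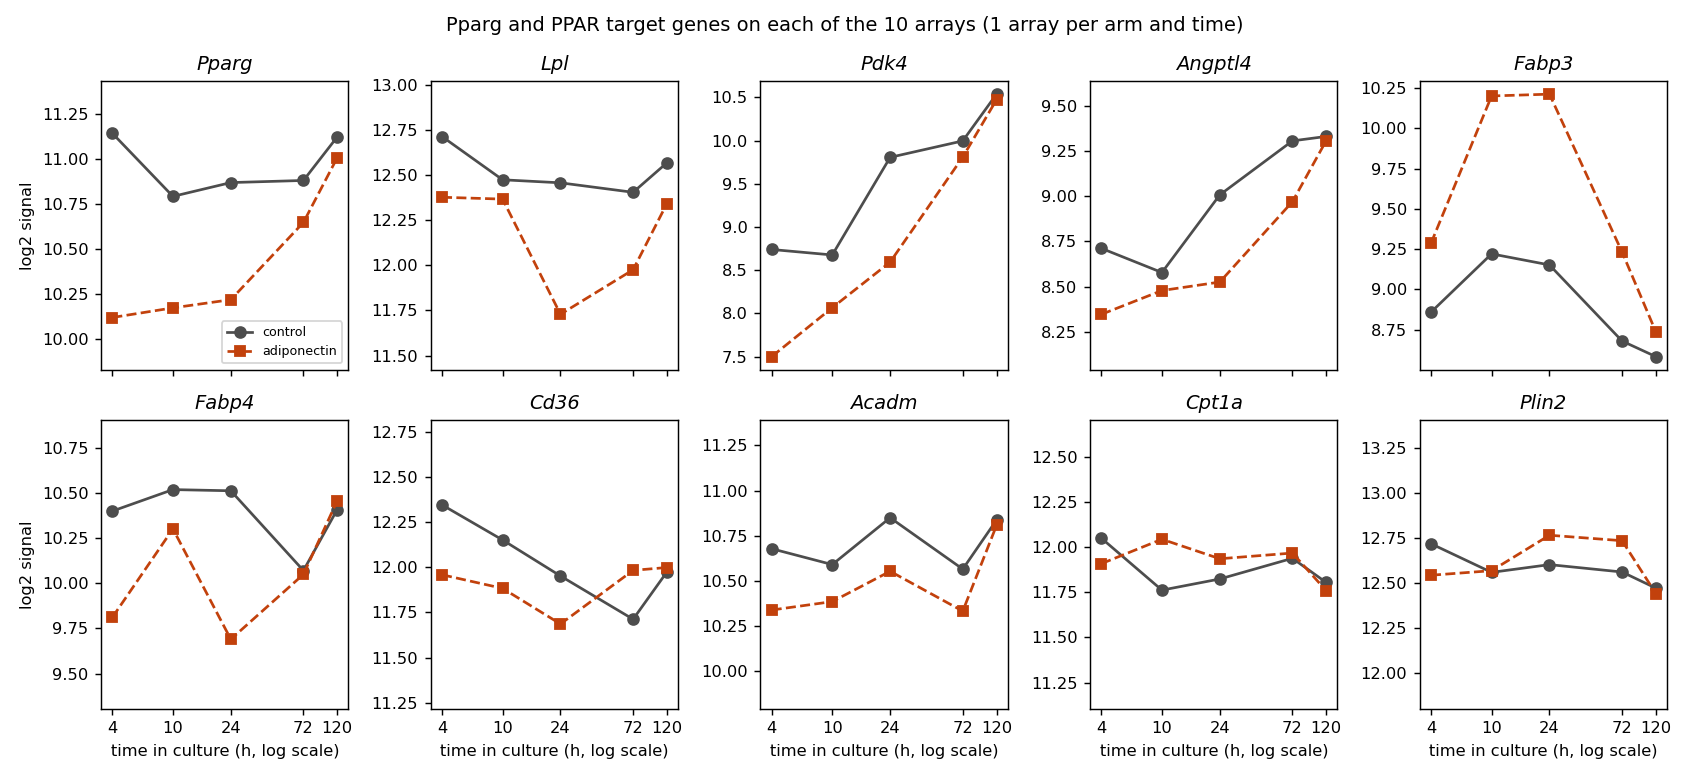
Log2 signal of each gene (vertical axis, each panel with its own range) against time in culture in hours on a log scale, with 1 array per arm and time; circles are control and squares adiponectin cultures. Pparg in the adiponectin arm runs from 10.12 at 4 h to 11.01 at 120 h, where it comes close to the control value of 11.12.

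The other receptors of the family did not pass the test between the arms. Ppard, the widely expressed form, differed by 0.05 ± 0.08 (limma adjusted p = 0.917), and Ppara, the main form of liver, which lay at a low level here (percentile 19.4 of genes), by 0.05 ± 0.17 (adjusted p = 0.916). Among the RXR partners, Rxra differed by -0.20 ± 0.21 (adjusted p = 0.460), Rxrb by -0.10 ± 0.12 (0.764) and Rxrg by 0.20 ± 0.19 (0.421). Over time, Rxrg, a dim gene here (percentile 26.5), rose in control (0.18 per doubling of hours, adjusted p = 0.0163) and adiponectin cultures (0.26, adjusted p = 0.00387), and Rxra in adiponectin cultures (0.13, adjusted p = 0.0216). Of the 6 receptor genes, Pparg included, 1 was called lower between the arms and 0 higher.

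Fabp3, the fatty acid binding protein best known from heart muscle, was the member called higher. Its log2 signal in control cultures was 8.86, 9.22, 9.15, 8.68 and 8.58 from 4 to 120 h. In adiponectin cultures it was 9.29, 10.20, 10.21, 9.23 and 8.74. Each adiponectin array was above the control of its own time, but the arms overlapped across times: the 120 h adiponectin value lay inside the control range and the 4 h and 72 h values just above its top. The difference was 0.43 at 4 h, 0.98 at 10 h, 1.06 at 24 h (2.09-fold higher), 0.55 at 72 h and 0.15 at 120 h. Its mean was 0.63 ± 0.38 (SD, n = 5 pairs; 1.55-fold; higher in 5 of 5 pairs), with limma adjusted p = 0.0204. The call was lost without the 10 h pair (0.55, adjusted p = 0.0852) or the 24 h pair (0.53, adjusted p = 0.103) and without pairing by time (adjusted p = 0.890).

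Fabp3 was the member with 2 probe sets. The second differed by 0.47, 1.12, 1.28, 0.54 and 0.18 from 4 to 120 h, a mean of 0.72 ± 0.46 (limma adjusted p = 0.0241 in place of the first, an alternative chosen after the data were seen). RefSeq also lists a pseudogene, Fabp3-ps1. How the signal of either probe set divides between the gene and this copy cannot be told apart here, so the value of Fabp3 is uncertain to that extent.

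Fabp4, the binding protein of fat cells and macrophages, went the other way at early times without passing the test. Control cultures were at 10.40, 10.52, 10.51, 10.07 and 10.41 from 4 to 120 h, and adiponectin cultures at 9.81, 10.30, 9.69, 10.05 and 10.46. The differences of -0.59 at 4 h and -0.82 at 24 h stood beside -0.22 at 10 h, -0.02 at 72 h and 0.05 at 120 h. The mean was -0.32 ± 0.37 (limma adjusted p = 0.347; lower in 4 of 5 pairs). Fabp3 and Fabp4 thus had mean differences of opposite sign.

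Pdk4, the kinase that shuts pyruvate dehydrogenase and so spares glucose when fat is burned, had the largest mean difference of the 10 genes. Its control values from 4 to 120 h were 8.74, 8.68, 9.81, 9.996 and 10.54, and its adiponectin values 7.50, 8.07, 8.59, 9.81 and 10.47. The arms were far apart up to 24 h and nearly met at 120 h. The difference was -1.24 at 4 h (2.36-fold lower), -0.61 at 10 h, -1.21 at 24 h (2.32-fold lower), -0.19 at 72 h and -0.06 at 120 h. Over the 5 pairs it was -0.66 ± 0.55 (limma adjusted p = 0.0772; lower in 5 of 5 pairs), short of the threshold. It passed without the 72 h pair (-0.78, adjusted p = 0.0277) or the 120 h pair (-0.81, adjusted p = 0.0332).

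Lpl, the lipase that frees fatty acids from lipoproteins, was lower in every adiponectin culture than in any control culture. Control values ran 12.71, 12.47, 12.46, 12.40 and 12.57 from 4 to 120 h and adiponectin values 12.38, 12.37, 11.73, 11.98 and 12.34, so the arms did not overlap. Such a separation downwards was seen for 0.296% of all genes and upwards for 1.53%. The mean difference was -0.37 ± 0.24 (1.29-fold lower; lower in 5 of 5 pairs), with limma adjusted p = 0.0837, and the largest was -0.73 at 24 h. It passed with arrays centred on their medians (-0.38, adjusted p = 0.0423) and with an intensity trend and robust prior (adjusted p = 0.0215).

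Angptl4, a secreted inhibitor of that lipase, was lower in 5 of 5 pairs by amounts that did not pass. In control cultures it was at 8.71, 8.58, 9.01, 9.31 and 9.33, and in adiponectin cultures at 8.35, 8.48, 8.53, 8.97 and 9.31. The mean difference was -0.26 ± 0.19 (limma adjusted p = 0.223).

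Cd36, a fatty acid translocase and scavenger receptor of macrophages, had no settled direction. Its control values from 4 to 120 h were 12.35, 12.15, 11.95, 11.71 and 11.97, and its adiponectin values 11.96, 11.88, 11.69, 11.98 and 11.999. It was lower in the 3 early pairs (-0.39, -0.27 and -0.27) and higher at 72 h (0.27) and 120 h (0.03), with a mean of -0.13 ± 0.27 (limma adjusted p = 0.801). Of the oxidation genes, Acadm, the medium-chain acyl-CoA dehydrogenase, was lower in 5 of 5 pairs by -0.34, -0.21, -0.30, -0.23 and -0.03, a mean of -0.22 ± 0.12 (adjusted p = 0.251). Cpt1a, the enzyme that admits long-chain fatty acids to mitochondria, differed by 0.05 ± 0.16 (adjusted p = 0.926), with a 95% interval from -0.13 to 0.22. Plin2, the coat protein of lipid droplets, differed by 0.03 ± 0.15 (adjusted p = 0.959), with an interval from -0.14 to 0.20. Its values spanned 12.47 to 12.72 in control and 12.44 to 12.77 in adiponectin cultures.

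**Figure D2:**
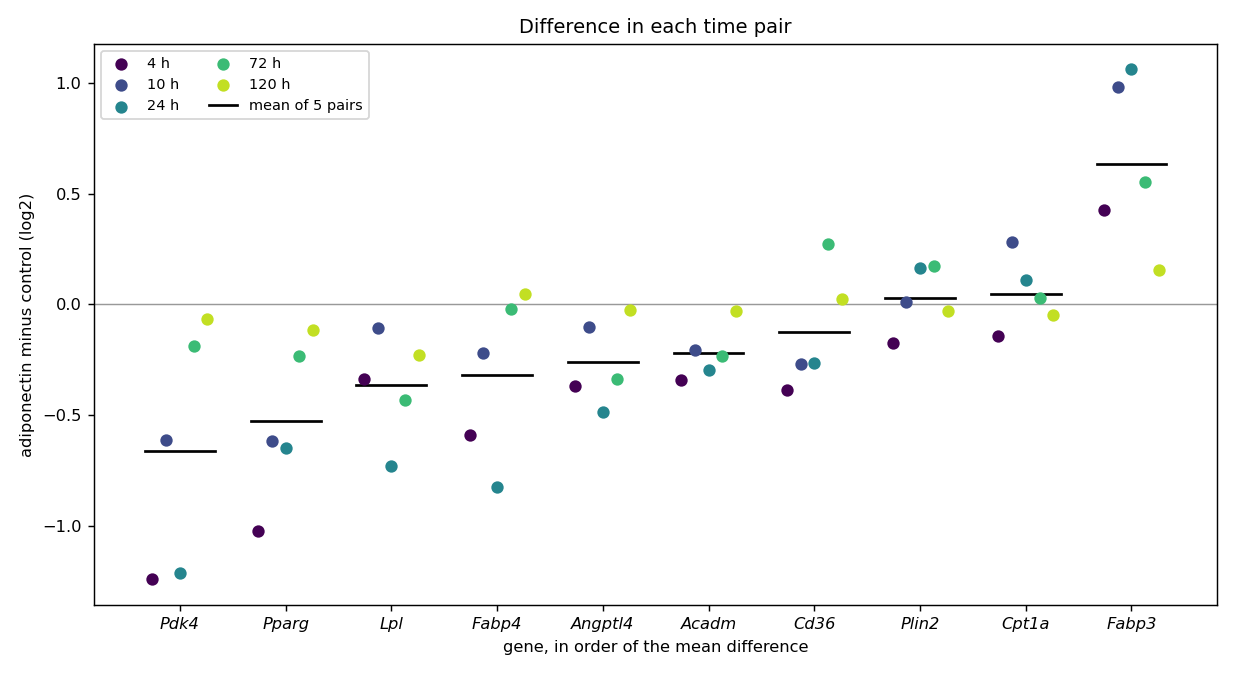
Adiponectin minus control in log2 units (vertical axis) for each gene in each of the 5 time pairs, coloured by time, with a bar at the mean of the 5 pairs. The 120 h points lie between -0.23 and 0.15 for all 10 genes, while at 24 h they run from -1.21 to 1.06.

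Set against all genes of the same pair, the members stood furthest out in the first day. The central 95% of all genes lay between -0.51 and 0.51 at 4 h, where 3 members were below it (Pparg, Pdk4 and Fabp4). At 10 h, with limits of -0.40 and 0.65, 2 were below (Pparg and Pdk4) and 1 above (Fabp3). At 24 h the limits were -0.55 and 0.57, with 4 below (Pparg, Pdk4, Lpl and Fabp4) and 1 above (Fabp3). At 72 h Lpl was the member below and Fabp3 the member above limits of -0.36 and 0.42, and at 120 h 0 of 10 were outside -0.39 and 0.48. By construction 2.5% of all genes lie beyond each limit. With 1 array per arm at each time, these positions have no test.

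The change of the difference with time was tested as a slope per doubling of hours. By limma, 0 of 10 members passed in either direction, and 0% of all genes did. At an unadjusted threshold of 0.05, 3 members (Pparg, Pdk4 and Cd36) and 620 genes had slopes above 0, and 0 members and 1339 genes slopes below 0. The slope of Pparg was 0.17 ± 0.04 per doubling (SE; limma adjusted p = 0.436), that of Pdk4 0.22 ± 0.07 (adjusted p = 0.499) and that of Cd36 0.11 ± 0.04 (adjusted p = 0.499). A smaller difference at late times was therefore seen in the values of Pparg and Pdk4 and was not established by the test.

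With the 4, 10 and 24 h pairs alone, an alternative chosen after the data were seen, 2 members were called lower, Pparg (-0.76, limma adjusted p = 0.0204) and Pdk4 (-1.02, adjusted p = 0.0138), and Fabp3 was called higher (0.82, adjusted p = 0.0320). Fabp4 (-0.54, adjusted p = 0.128) and Lpl (-0.39, adjusted p = 0.276) did not pass there. Of all genes, 1.17% were called higher and 0.216% lower with these pairs.

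Pdk4 and Angptl4 rose with time in culture in both arms. In control cultures, 2 of 10 members had a called rise and 0 a called fall, where 4.64% of all genes rose and 4.45% fell (925 and 888 genes, or 738 and 1559 with arrays centred on their medians). Pdk4 rose by 0.38 ± 0.06 log2 units per doubling of time (SE; limma adjusted p = 0.00678) and Angptl4 by 0.16 ± 0.04 (adjusted p = 0.0282). From 4 to 120 h Pdk4 went up 3.48-fold and Angptl4 1.54-fold in these cultures. Pparg had a slope of 0.00 ± 0.04 (adjusted p = 0.995) in the control arm.

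In adiponectin cultures, 3 of 10 members had a called rise and 0 a called fall, where 4.15% of all genes rose and 3.46% fell. Pdk4 rose by 0.60 ± 0.06 per doubling (limma adjusted p = 0.00198), 7.85-fold from 4 to 120 h, from a lower start than in the control arm. Angptl4 rose by 0.19 ± 0.04 (adjusted p = 0.0145; 1.95-fold) and Pparg by 0.17 ± 0.04 (adjusted p = 0.0308; 1.85-fold). That Pparg passed in this arm and not in control does not show that the arms differ, since the difference of the slopes, tested above, did not pass.

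These calls leaned on the late arrays. Without the 120 h pair the adjusted p in control cultures was 0.124 for Pdk4 and 0.230 for Angptl4, and without the 72 h pair 0.0585 and 0.157. For Angptl4 the control call was also lost without the 10 h pair (0.0691). In adiponectin cultures the call of Pdk4 was kept without any 1 pair (adjusted p up to 0.0375). Those of Pparg (0.077, 0.129 and 0.358 without the 10, 72 or 120 h pair) and Angptl4 (0.0863 and 0.273 without the 72 or 120 h pair) were lost.

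Fabp3 had a peak, not a line: in both arms it was highest at 10 and 24 h and lowest at 120 h. Its slopes were -0.09 ± 0.10 in control (limma adjusted p = 0.601) and -0.16 ± 0.10 in adiponectin cultures (adjusted p = 0.443). Without the 4 h pair the adiponectin slope was -0.43 and passed (adjusted p = 0.00779). Cd36 declined by -0.10 ± 0.04 per doubling in control cultures without passing (adjusted p = 0.107), from 12.35 at 4 h to 11.71 at 72 h and 11.97 at 120 h. Lpl, Fabp4, Acadm, Cpt1a and Plin2 had slopes between -0.04 and 0.08 in both arms, and none of them passed.

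**Figure D3:**
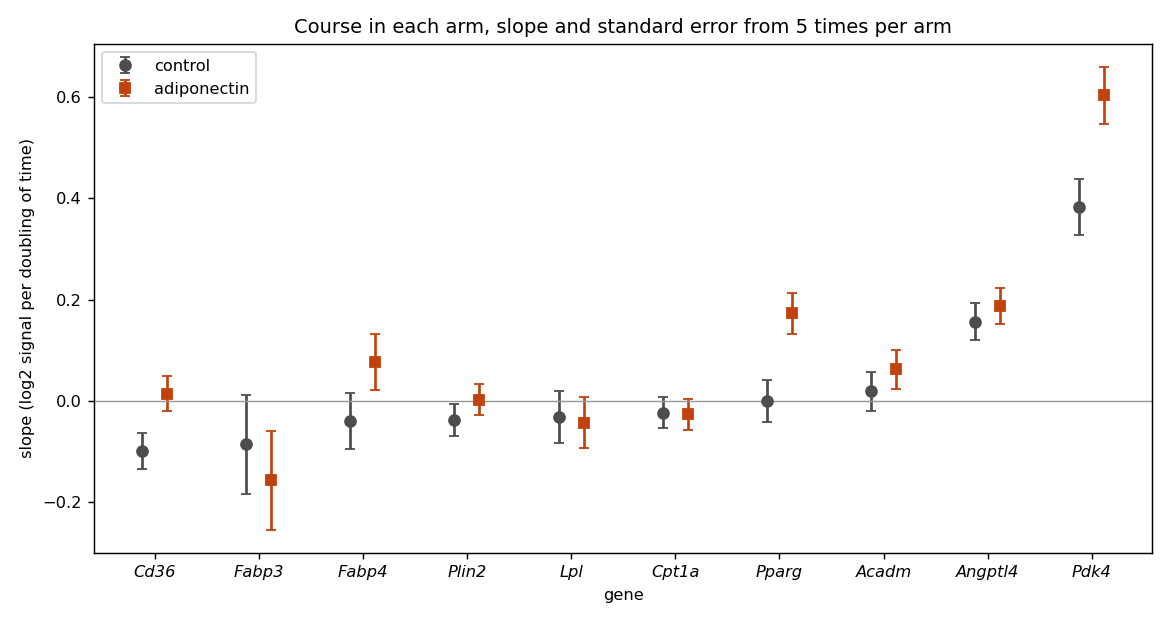
Slope of log2 signal per doubling of time in culture (vertical axis) for each gene, with its standard error, in control (circles) and adiponectin cultures (squares), from 5 times per arm. Pdk4 stands highest in both arms, at 0.38 and 0.60.

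The mean levels of several marker lists differed between early and late cultures beside these courses. In control cultures from 4 to 120 h the mean of the 8 neutrophil markers went from 13.4 to 9.72, that of 4 megakaryocyte markers from 12.6 to 9.94, that of 5 B cell markers from 11.4 to 9.06, that of 8 osteoclast markers from 9.96 to 12.1 and that of 8 stromal markers from 9.54 to 10.1. The adiponectin arm ran from 13.1 to 9.89, 12.6 to 9.96, 11.3 to 9.40, 10.05 to 11.8 and 9.48 to 10.2. Not all genes of a list shared its course. Called falls in control were 6 of 8 neutrophil, 1 of 4 megakaryocyte and 1 of 5 B cell markers (4.45% of all genes). Called rises there were 7 of 8 osteoclast and 3 of 8 stromal markers (4.64% of all genes). Among osteoclast markers in adiponectin cultures 3 had a called rise and 1 a called fall (4.15% and 3.46% of all genes). The mean of 7 adipocyte markers went from 7.85 to 8.66 in control and from 7.94 to 8.31 in adiponectin cultures. Of these 7, 2 had a called rise in control and 0 in adiponectin cultures, where 4.64% and 4.15% of all genes rose. In a bulk sample, fewer cells of a type and less RNA per cell cannot be told apart. The part of these lists in the courses of Pdk4 and Angptl4 was not tested.

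Between the arms, several marker lists differed in their means, in some through 1 or 2 genes. The 8 dendritic cell markers lay at 9.49 to 10.0 in control and 8.73 to 9.72 in adiponectin cultures (mean difference -0.48 ± 0.29, n = 5 pairs; median over the genes -0.16), with Cd209a, a lectin of monocyte-derived dendritic cells, called at -2.36 ± 0.54 (limma adjusted p = 1.36e-05). The 8 T and NK cell markers lay at 7.06 to 7.31 and 7.13 to 8.01 (0.39 ± 0.39; median over the genes 0.20), with 0 of 8 above the median gene and 0 called; Gzmb (1.51) and Il2rb (0.79), named after their values were seen, had the largest differences. Osteoclast markers, each of the 8 lower on average and 0 called, differed by -0.33 ± 0.58 (median over the genes -0.33), with list means of 12.04 in control and 10.76 in adiponectin cultures at 72 h. The means of the other myeloid lists differed less. Monocyte markers differed by -0.05 ± 0.28 (median over the genes -0.18), with 3 of 5 genes lower on average and 2 higher. Treml4, 1 of the 2 higher, was the call at 0.50 ± 0.29 (limma adjusted p = 0.0299). Neutrophil markers differed by -0.17 ± 0.21. The values were 0.09 ± 0.06 for macrophages, -0.10 ± 0.21 for adipocytes, -0.08 ± 0.15 for endothelium and 0.04 ± 0.08 for stroma. Which cell types made the RNA of the members was not measured in these bulk samples. Erythroid (-0.17 ± 0.14), megakaryocyte (-0.08 ± 0.13) and B cell markers (0.10 ± 0.15) completed the lists. The part of these lists in the differences of Pparg and the other members was not tested.

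Among the other genes of the PPAR pathway, Nr1h3, Abca1 and Cebpb were called higher in adiponectin cultures and Abcd2 lower. Of 107 further genes on 11 lists, 96 were measured; 3 of them were called higher and 1 lower, where 2.05% and 0.371% of all genes were, and their median mean difference was -0.02. Nr1h3 encodes the oxysterol receptor LXR-alpha and is known as a macrophage PPAR-gamma target. Its mean difference was 0.60 ± 0.03, with values from 0.58 to 0.64 in the 5 pairs (limma adjusted p = 0.00052). Nr1h3 was thus higher in each of the 5 pairs in which Pparg was lower. Abca1, the cholesterol exporter that LXR controls, was higher by 0.33 ± 0.12 (adjusted p = 0.0415), and Cebpb, an early adipogenic and inflammatory transcription factor, by 0.38 ± 0.18 (adjusted p = 0.0399). Abcd2, a peroxisomal transporter of very long-chain fatty acids, was lower by 0.40 ± 0.23 (adjusted p = 0.0472). With 1 pair left out the adjusted p was at most 0.00431 for Nr1h3, while those of Cebpb (up to 0.119) and Abcd2 (up to 0.184) were lost without any 1 pair and that of Abca1 (up to 0.164) without the 4, 10, 24 or 72 h pair. With arrays centred on their medians Cebpb (adjusted p = 0.0651) and Abca1 (0.0502) did not pass either. When times were not paired none of the 4 calls held, that of Nr1h3 included (adjusted p = 0.284).

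Most fatty acid oxidation genes had mean differences below 0, and 1 of them, the peroxisomal Abcd2, passed. Over all genes 8746 of 19938 were below 0, and 0.371% were called lower and 2.05% higher. Of 17 measured mitochondrial genes, 13 had a mean below 0 (median -0.14) and 0 were called, led by Acaa2, the last enzyme of the spiral (-0.35 ± 0.22, limma adjusted p = 0.0801), and the electron carrier Etfb (-0.29 ± 0.20, adjusted p = 0.167). Of 9 peroxisomal genes 6 were below 0 (median -0.05) and 1 was called, Abcd2 at -0.40, followed in size by Ech1 at -0.27 ± 0.22 (adjusted p = 0.253). The 4 pyruvate dehydrogenase kinases had a median of -0.16, with Pdk2 second to Pdk4 at -0.31 ± 0.19 (adjusted p = 0.117).

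Of 13 lipid droplet and lipolysis genes 0 were called (median -0.05). With 0.371% of all genes called lower and 2.05% higher, 0 calls in lists this short say little. The monoglyceride lipase Mgll was at -0.38 ± 0.23 (limma adjusted p = 0.0638) and Plin3, another droplet coat protein, at -0.24 ± 0.04 (adjusted p = 0.120). Of 11 adipocyte targets of PPAR-gamma 0 were called (median -0.03), with Adipoq, the adiponectin gene itself, at -0.43 ± 0.44 (adjusted p = 0.204) and the glycerol channel Aqp7 at -0.27 ± 0.23 (adjusted p = 0.278). Of the 12 macrophage targets (median 0.04) 9 had means above 0 and 3 below, where 11192 of 19938 genes were above 0. The 2 called, Nr1h3 and Abca1, were both higher. The mannose receptor Mrc1, with the largest mean difference of this list, was at -0.64 ± 0.56 (limma adjusted p = 0.0903). Of 10 coregulators 0 were called (median 0.04), with Ncoa1 at 0.25 ± 0.33 (adjusted p = 0.505) and Ep300 at 0.10 ± 0.10 (adjusted p = 0.761). Among 9 adipogenic transcription factors (median 0.01) Cebpa, the partner of Pparg in fat cells, was at -0.26 ± 0.25 (adjusted p = 0.335). The 6 measured genes of the lipoprotein lipase axis had a median of -0.13 and 0 calls, and the 9 uptake and binding genes a median of 0.01 with Fabp3 as the call.

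**Figure D4:**
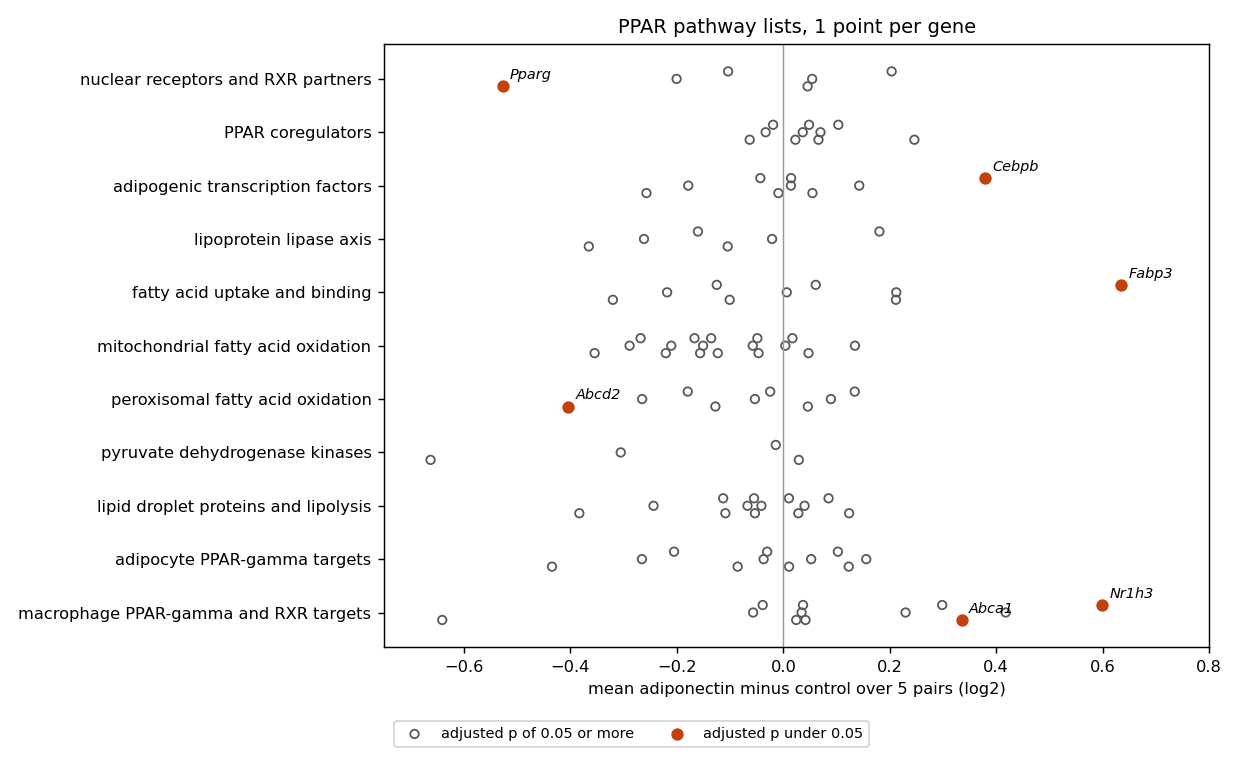
Mean adiponectin minus control over 5 pairs in log2 units (horizontal axis) for each measured gene of 11 PPAR pathway lists, 1 point per gene; filled points passed limma at an adjusted p under 0.05 and are named. Fabp3 at 0.63 and Nr1h3 at 0.60 lie furthest right, and Pdk4 at -0.66, which did not pass, furthest left.

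Over the 10 arrays the members did not run as one group. Pdk4 and Angptl4 had the closest profiles (Pearson r = 0.97), and Pparg correlated at 0.76 with Acadm, 0.76 with Pdk4 and 0.75 with Angptl4 but at -0.84 with Fabp3 and -0.25 with Plin2. These points share arms and times, so the values describe the profiles and carry no test.

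The 5 genes most like Pparg were sought among the 2478 other genes that spanned at least 1 log2 unit over the 10 arrays, by Pearson r. They were the ubiquitin ligase gene Wwp1 (r = 0.97, Spearman rho = 0.92), the transporter gene Abcg3 (0.94 and 0.84), the ring finger gene Rnf150 (0.94 and 0.82), the Fc receptor gene Fcgr3 (0.93 and 0.75) and the sterol hydroxylase gene Cyp27a1 (0.93 and 0.76). Both arms entered this choice, so a lower level in adiponectin cultures is largely fixed by it, and the differences are given as a description with no test. Their mean differences were -0.59 ± 0.43, -0.55 ± 0.31, -0.59 ± 0.31, -0.42 ± 0.29 and -0.54 ± 0.33 in that order. At 120 h they differed by -0.14, -0.22, -0.28, -0.21 and -0.37, against -0.98, -0.99, -0.78, -0.57 and -0.90 at 4 h.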

How the data were processed

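The deposited values were log2 signals, 1 per probe set and array; RMA, Affymetrix Expression Console and Partek are named without version or order, per the submitters' processing notes. No source used here gives the genome build behind the probe sets. The table held 35556 probe sets; 21789 had 1 gene symbol, 1621 several and 12146 none, and the last 2 kinds were named nowhere. For each gene the probe set with the highest mean was used (19938 genes), with no filter on dim genes. Entrez IDs were looked up in RefSeq GRCm38.p6: 91 were not in that table and 0 symbols needed updating.

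Tests used limma 3.58.1 in R 4.3.3 (two-sided, Benjamini-Hochberg over all genes, threshold 0.05) and were tested on simulated data. For the effect of adiponectin, treatment was fitted beside a block for each of the 5 labelled times, which makes the pairs, and left 4 residual degrees of freedom; its change with time added treatment by log2 hours (3). Courses used an intercept and slope per arm (6). Intervals are per gene and not adjusted. The members and lists were chosen with earlier results of these data known. Genes named beyond the members were those called, the 2 largest mean differences per list, all receptors, called markers and the 5 profiles most like Pparg. Alternatives covered scaling, dim genes, probe sets, variance prior, pairing, time scale and leaving out each pair. Array number limits precision, and quantile normalization in RMA removes much of any shift shared by most genes.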

Additional observations from a re-analysis of the deposited data

Results flagged for a closer look

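The Fabp4 signal of the 72 h control culture, 10.07, lay far below the other 4 control values, which spanned 10.40 to 10.52. It stood out because its gap to the nearest of the others, divided by the range of the 5 values, was 0.73. This ratio exceeded Dixon's 95% critical value for 5 samples (0.71). About 1 in 20 such sets passes that value by chance, and the 5 control cultures differ in time, so they are not plain replicates. The control values, the adiponectin values and the differences of each of the 10 genes were all screened. This was the only set flagged, which is no more than that rate gives. Against this control the 72 h adiponectin culture (10.05) differed by -0.02.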

How the results depend on the processing

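No called value reversed its direction under any alternative run. The count of members called lower for the adiponectin effect, 1 as reported, was 2 with arrays centred on their medians (Lpl added), 2 with an intensity trend and robust prior (Lpl added), 2 with the 4, 10 and 24 h pairs only (Pdk4 added) and 0 both without a time block and with log2 hours in its place. The count called higher, 1 as reported, was 0 in those last settings, and leaving out 1 pair gave 0 to 1 higher and 0 to 2 lower. For the course in control cultures, 2 rises as reported became 1 with late against early times (Pdk4 lost), 1 with each arm on its own 5 arrays (Angptl4 lost), and 0 to 2 with 1 pair left out. For the course in adiponectin cultures, leaving out 1 pair gave 1 to 3 rises and 0 to 1 falls. The causes of these changes were not tested, beyond that fewer arrays enter when a pair is left out.

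Over all genes, 74 calls lower became 117 with an intensity trend and robust prior, 46 without the 10 h pair, 21 when the 24 h pair was left out, 43 with early pairs only, 30 with log2 hours and 4 without a time block; 408 higher became 146 without a time block and 233 with early pairs only. In control cultures 925 rises and 888 falls became 1743 and 1335 with hours in place of log2 hours, 513 and 490 with each arm alone, 6 and 27 when the 72 h pair was left out and 5 and 17 when the 120 h pair was; rises were 605 among genes above the median level, 1476 and 413 with the 4 h or the 10 h pair left out, and the split 738 and 1559 with centred arrays. The change with time, 0 calls as reported, gave 2 upward and 3 downward with an intensity trend and robust prior, and 0 to 2 upward and 0 downward under the other settings. In adiponectin cultures 827 and 689 became 63 and 50 when the 72 h pair was left out and 23 and 15 when the 120 h pair was, and falls were 431 and 320 with the 4 h or the 10 h pair left out. No source used here gives background signal, so small differences of dim genes such as Ppara are weakly measured.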
